A study of Drosophila melanogaster with 2 samples.

Results

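The genes described here are 35 listed Drosophila melanogaster genes that carry proteins into the endoplasmic reticulum (ER), process and fold them there, and move them between the ER and the Golgi in COPI and COPII coated vesicles. They were chosen by name for these roles, with peak values of the same data already known, and each was looked up for a ChIP-seq peak summit within 1 kb of one of its annotated transcription start sites (TSSs). A thresholded summit is the highest point of a peak in the list that passed the authors' IDR threshold, a limit on reproducibility between replicates. Of the 35 genes, 23 had a thresholded summit and 12 had none. They stand among 13945 protein-coding genes of the 6 chromosomes with peaks.

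The study was ChIP-seq, the sequencing of DNA that precipitates with a protein, of Fer1 in whole fly embryos. Both samples belong to 1 group, a transgenic strain named Fer1-GFP that stably expresses Fer1 with GFP at its C terminus, collected as mixed-sex embryos aged 6 to 24 h, in 2 biological replicates. An antibody against GFP was used on chromatin sonicated to 200 to 800 bp. The labels name no further allele or treatment, and they do not say which promoter drives the transgene or whether the endogenous Fer1 is present. Embryos were pooled and whole, so the cells in which a peak arose cannot be told apart, and the GFP fusion stands in for the native protein. There is no second condition or genotype, the control library that the labels name was not analysed here, and read depth is unknown. All values are therefore positions, signal values and ranks of the authors' peaks, with no comparison between conditions. They show where peaks of the tagged protein were called, and expression was not measured.

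Fer1 is a basic helix-loop-helix protein related to mammalian PTF1A, a regulator of the exocrine pancreas, and proteins of its class bind E-boxes, written CANNTG with any base at N. Secreted and membrane proteins are recognised at the ribosome by the signal recognition particle (SRP), handed to its receptor and threaded through the Sec61 channel, after which signal peptidase removes the signal peptide and chaperones fold the chain. COPII coats bud vesicles that leave the ER, and COPI coats bud vesicles that return proteins to it. In Drosophila embryos, many genes of this pathway are known targets of CrebA, a bZIP factor of secretory tissues such as the salivary gland.

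The DNA under the highest summits is shown first, because the summit is where the tagged protein was recovered most strongly. The following 6 stretches belong to the member with the highest signal at each step, leaving out the genes whose sequence is not printed here, read on the gene's own strand from 5′ to 3′ with capitals at E-boxes. They lie at dm6 chr3R:20587888-20587917 (plus strand, Srp72), chrX:935339-935368 (plus, TRAM), chr3R:24230450-24230550 (minus, Spase22-23), chr3R:29319792-29319892 (minus, Cnx99A), chr3R:23357051-23357151 (plus, Sec13) and chr3L:1645210-1645310 (minus, alphaCOP), with the Srp72 and TRAM stretches cut to 30 bases inside a 5′ UTR.
Srp72: ctctctgcatcgagctaccactgtatgtcc
TRAM: cggccaacaaatcggcttcacagtgaaaag
Spase22-23: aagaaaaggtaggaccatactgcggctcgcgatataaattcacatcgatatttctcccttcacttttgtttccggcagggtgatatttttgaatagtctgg
Cnx99A: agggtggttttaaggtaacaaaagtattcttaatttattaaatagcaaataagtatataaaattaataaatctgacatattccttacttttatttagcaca
Sec13: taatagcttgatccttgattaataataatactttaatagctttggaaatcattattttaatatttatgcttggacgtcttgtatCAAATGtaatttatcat
alphaCOP: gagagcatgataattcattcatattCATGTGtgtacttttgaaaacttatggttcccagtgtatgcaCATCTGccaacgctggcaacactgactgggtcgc
The stretches differ in base composition, from 21.8% G and C at Cnx99A to 43.6% at alphaCOP among the 4 full windows. Only Sec13 and alphaCOP of these 6 hold an E-box in the bases shown. TRAM, which has by far the highest signal of the 35 genes, had none in its full window of 50 bp to either side.

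A further 3 windows are shown because they hold the most E-boxes (beta'COP), the CACGTG form (Hsc70-3) or the DNA replication-related element TATCGATA, in capitals for Srp68, and they were chosen after the values were seen. They lie at dm6 chr2L:13378683-13378783 (plus strand, beta'COP), chrX:11806362-11806462 (minus, Hsc70-3) and chr3L:8974736-8974836 (plus, Srp68).
beta'COP: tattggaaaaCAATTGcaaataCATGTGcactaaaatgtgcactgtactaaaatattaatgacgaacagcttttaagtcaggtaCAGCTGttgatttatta
Hsc70-3: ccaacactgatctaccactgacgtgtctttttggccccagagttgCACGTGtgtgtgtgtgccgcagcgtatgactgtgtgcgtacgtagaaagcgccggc
Srp68: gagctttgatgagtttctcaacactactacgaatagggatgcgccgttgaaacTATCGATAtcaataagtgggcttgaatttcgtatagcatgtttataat

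The 23 genes with a thresholded summit were 65.7% of the 35, and the share over all protein-coding genes was 33.1% (4615 of 13945). Because the summits entered the choice of the genes, nothing is read from that difference. Their median signal, in the authors' units, was 259.7, with a range of 121.5 to 1100, and the median over all protein-coding genes with a summit was 202.2. In rank, where 1 is the highest peak of the thresholded list, the median was 2103 for the 23 genes and 3116 for the 4615 genes, or 28.7% and 42.5% of the way down the list. That order turned with a window of 500 bp, where, in a comparison for all genes added after seeing the data, the median rank was 3619 for 21 of the 35 genes and 3210.5 for 4074 protein-coding genes. The highest summits of 15 of the 23 genes lay above the median signal of the list, 182.1, and those of 8 lay below it. The peaks thus spread from the upper to the lower end of the list, and TRAM stood alone near its top. Just inside the threshold were Hsc70-3 with a signal of 127.8 (rank 6052) and Sec23 with 121.5 (rank 6486), and just outside it were Sec61gamma with 106 (rank 7672 in the pooled list) and Srp54 with 99.28 (rank 8286).

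**Figure D1:**
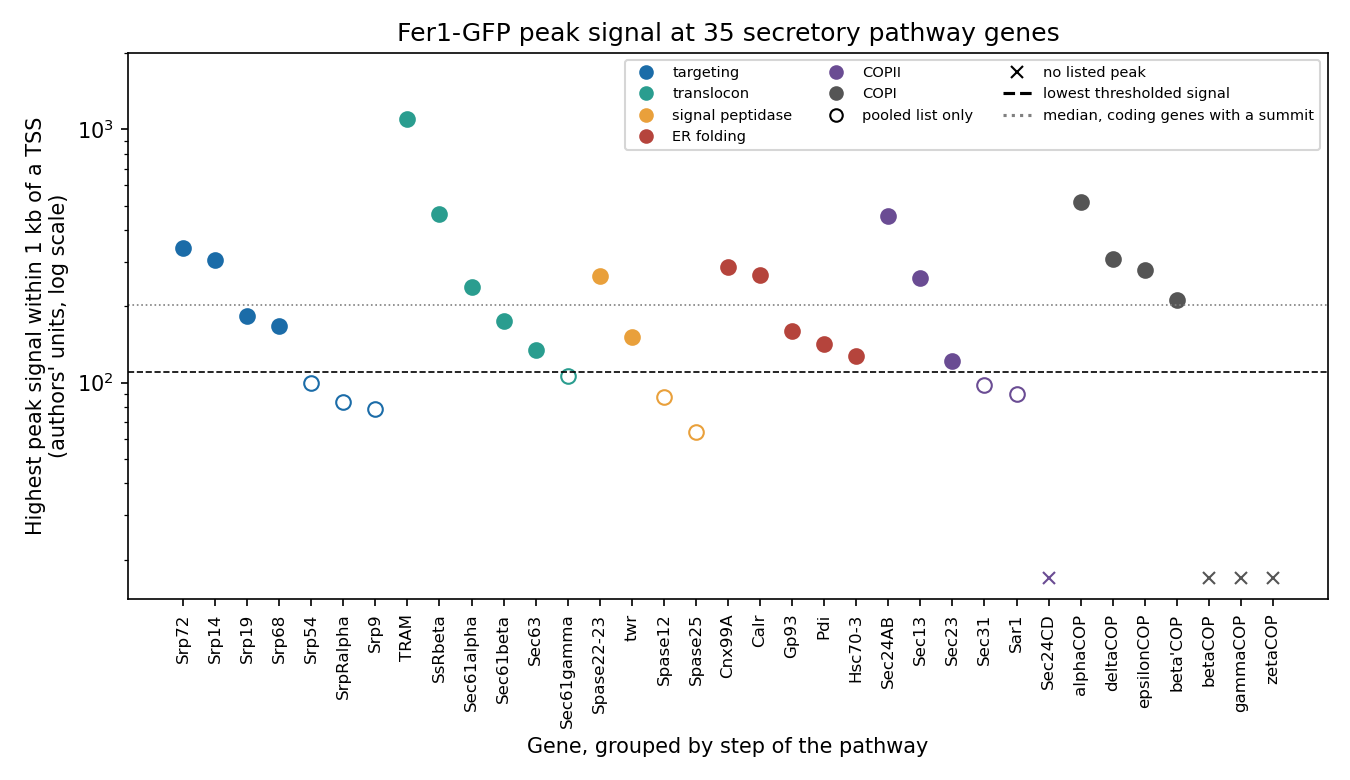
Signal of the highest peak summit within 1 kb of a TSS in the authors' units (log axis) for each of the 35 genes, grouped by step of the pathway; marker style separates summits of the thresholded list from summits found only in the pooled list. TRAM at 1100 lies above every other gene, and 8 genes have only a pooled summit, from 63.82 at Spase25 to 106 at Sec61gamma.

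Among the 7 genes of targeting to the ER, 4 had a thresholded summit, with signals from 167.8 to 338.7. Srp9 and Srp14 form the Alu domain of the particle, which slows the ribosome, and Srp19, Srp54, Srp68 and Srp72 belong to its S domain, where Srp54 binds the signal peptide. Srp72 had the highest signal of the group, 338.7 (rank 1356). In replicate 1 its peak had a signal of 200.1 (rank 1414) and in replicate 2 of 134.4 (rank 1479), so its place was similar in both. The Srp72 summit lay 808 bp upstream of the Srp72 TSS and 100 bp from a TSS of the antisense RNA asRNA:CR46044. It lay in a 5′ UTR that is not that of Srp72. Septin2, which starts on the opposite strand 355 bp from Srp72, was the nearest other coding gene, with a TSS 453 bp from the summit. A second summit of 128 lay 141 bp upstream of Srp72. Srp14 had a signal of 306.2 (rank 1588), with ranks of 1554 and 1768 in replicates 1 and 2. Its summit lay 132 bp upstream of Srp14 and 133 bp from the TSS of EloB, which starts on the opposite strand 265 bp away.

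The other 2 targeting genes with a thresholded summit also shared it with a neighbour. The Srp19 summit had a signal of 183.9 (rank 3619), 325 bp upstream of Srp19 and 46 bp from the TSS of qm. That of Srp68 had 167.8 (rank 4153), 260 bp upstream of Srp68 and 21 bp from the TSS of pix, with a second one of 116.3 at 56 bp upstream of Srp68. In both cases the highest point was closer to the divergent neighbour than to the SRP gene. Srp54, Srp9 and SrpRalpha, the receptor subunit that docks the particle at the ER, had only pooled summits. Their pooled signals were 99.28, 78.99 and 84.09, below the lowest thresholded value of 110.1. The SrpRalpha summit lay 3 bp from its TSS, and the highest pooled summits of Srp54 and Srp9 were nearer to the TSSs of Etl1 and syd. Lower pooled summits lay 72 bp from the Srp54 TSS (signal 62.22) and 125 bp from the Srp9 TSS (51.23).

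Among the 6 translocon genes, 5 had a thresholded summit and the sixth, Sec61gamma, had a pooled one. TRAM, which in mammals helps nascent chains enter the membrane beside the channel, had the highest signal of all 35 genes, 1100 (rank 146). Its ranks were 149 in replicate 1, with a signal of 650, and 144 in replicate 2, with a signal of 448.4. The TRAM peak, at dm6 chrX:935142-935543, was thus near the top of both lists. Its summit lay 72 bp upstream of the nearest of the 4 TSSs of TRAM and inside a 5′ UTR exon. SsRbeta, a subunit of the translocon-associated protein complex, had the next highest signal, 464.6 (rank 786, and 824 and 888 in the replicates). That summit lay 910 bp upstream of SsRbeta and only 176 bp from a TSS of Pgm1.

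The 3 subunits of the Sec61 channel had lower values than TRAM. Sec61alpha, the pore subunit, had a signal of 238.8 (rank 2404), 123 bp upstream of its TSS. Sec61beta had 175.9 (rank 3878), 122 bp downstream, and its place differed between replicates, with rank 6576 in replicate 1 and 2435 in replicate 2. Sec61gamma had a pooled summit of 106 at 25 bp downstream, with ranks of 9395 and 6263. Sec63, which recruits the ER chaperone to the channel, had 3 thresholded summits, of 135, 127.9 and 113.3. The highest of them lay 284 bp upstream of Sec63 and 14 bp from the TSS of pst. The 3 values are close to each other and all lie in the lower part of the list.

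Signal peptidase had thresholded summits at 2 of its 4 genes, and at both the summit was nearer to another gene. Spase22-23, a noncatalytic subunit, had 264.7 (rank 2032), 465 bp upstream of its TSS and 62 bp from a TSS of mask. Its ranks were 1387 in replicate 1 and 4751 in replicate 2, the largest ratio of ranks among the 23 genes. twr, a homologue of the catalytic subunit, had 152.1 (rank 4772), 284 bp upstream and 156 bp from the TSS of CG1307. Spase12 and Spase25 had pooled summits of 88.03 and 63.82 within 30 bp of their own TSSs, at 25 and 28 bp. Spase25 was the lowest of the 31 genes with any summit.

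All 5 ER folding genes had a thresholded summit, beside 33.1% of all protein-coding genes. All 5 highest summits lay within 200 bp of a TSS of the gene, and none was nearer to another gene. Over all protein-coding genes with a summit, 62.8% lay within 200 bp and 30.3% were nearer to another gene. None of the 5 genes has a divergent neighbour within 500 bp. The signals were moderate, with a median of 159.6. Cnx99A, a calnexin that binds glycoproteins at the membrane, had the highest, 284.9 (rank 1799), 198 bp upstream of its TSS. It had 2 further summits, of 209 at 740 bp downstream and of 188 at 405 bp upstream. Calr, the soluble relative calreticulin, had 265.3 (rank 2022) at 6 bp downstream of its TSS. Both lectin chaperones therefore lay above the median of the list.

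The other 3 folding genes lay below it. Gp93, the ER member of the Hsp90 family, had a signal of 159.6 (rank 4468) at 28 bp downstream of its TSS. Pdi, which makes disulfide bonds, had 141.7 (rank 5251) at 128 bp downstream of the nearer of its 2 TSSs, which is inside the gene. Hsc70-3, the ER Hsp70 known as BiP, had 127.8 (rank 6052) at 59 bp upstream of the nearest of its 4 TSSs. That TSS is inside the gene, and the summit lay in an intron. A second summit, of 110.5 (rank 7300), lay 261 bp upstream of the gene's 5′ end. Hsc70-3 was at rank 7896 in replicate 1 and 3485 in replicate 2, Gp93 at 7461 and 5791, and Pdi at 5675 and 4837. By these ranks, each of the overlapping replicate peak with the nearest summit, Hsc70-3 and Gp93 were beyond the length of the thresholded list in replicate 1. Both were within it in replicate 2. At Gp93, another replicate 1 peak within that length shared at least 50% of both intervals with the thresholded peak.

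COPII genes had thresholded summits at 3 of 6, and none of the 3 highest summits lay within 200 bp of the gene's own TSS. Over all protein-coding genes, 33.1% had a thresholded summit, and 62.8% of their highest summits lay within 200 bp. Sec23 and the Sec24 proteins form the inner layer that binds cargo, and Sec13 and Sec31 form the outer cage. Sec24AB had the highest signal, 454.1 (rank 825, and 798 and 894 in the replicates). Its summit lay 820 bp downstream of the TSS in an exon of a non-coding RNA and 141 bp from a TSS of asRNA:CR45467. Sec13 had 259.7 (rank 2103) in an intron 538 bp downstream of the nearer of its 2 TSSs, which is inside the gene. Further summits were 169.5 at 76 bp upstream of the gene's 5′ end and 162.3 at 740 bp downstream of the inner TSS. Sec23 had 121.5 (rank 6486), 480 bp upstream and 153 bp from a TSS of MTA1-like. The overlapping peaks with the nearest summits were at rank 5119 in replicate 1 and 10724 in replicate 2. Another replicate 2 peak, within the length of the thresholded list, also overlapped the Sec23 peak. Of the COPII genes, Sec13 alone thus had a thresholded summit within 200 bp of its TSS, and it was not the highest of its 3.

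The remaining COPII genes were below the threshold or without a peak. Sec31 had a pooled summit of 97.64 at 51 bp from its TSS, at rank 7115 in replicate 1 and 22021 in replicate 2. Sar1, the GTPase that starts the coat, had 89.85 at 298 bp upstream. Sec24CD had no summit within 1 kb in the pooled list of 30000 peaks, and the nearest pooled summit was 7389 bp away.

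COPI had thresholded summits at 4 of 7 genes. All 3 genes of the outer layer had a thresholded summit and 1 of 4 genes of the inner layer did, a grouping chosen after the values were seen and not tested. Of the outer layer, alphaCOP had a signal of 515.7 (rank 646, and 735 and 602 in the replicates), second only to TRAM among the 35 genes. Its summit lay 61 bp upstream of alphaCOP and 207 bp from CG13919, which starts on the opposite strand, and another one of 261.4 lay 260 bp upstream of alphaCOP. epsilonCOP had 278 (rank 1880), 205 bp upstream and 129 bp from the TSS of KFase. beta'COP had 211.1 (rank 2916), 169 bp upstream. Each of these 3 genes has a divergent neighbour within 500 bp. In the inner layer zetaCOP has one too (CG13032, 409 bp away), and betaCOP, gammaCOP and deltaCOP have none.

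Of the inner layer, deltaCOP had a signal of 308.5 (rank 1568, and 1759 and 1482 in the replicates) at 157 bp upstream of its TSS. betaCOP, gammaCOP and zetaCOP had no summit within 1 kb even in the pooled list. Their nearest pooled summits lay 5169, 16407 and 2086 bp away. The one nearest to gammaCOP was among the highest of the pooled list, at rank 28. With Sec24CD, these were the only 4 of the 35 genes with no summit in either list.

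Of the 12 genes without a thresholded summit, 8 had a pooled one, and the share over all protein-coding genes without a thresholded summit was 31.9% (2974 of 9330). The 8 pooled signals ran from 63.82 to 106, at ranks from 7672 to 13207. When the thresholded list was replaced by the same number of highest peaks of a single replicate, Srp54 and Sec61gamma also counted in replicate 2 and Sec31 in replicate 1. The count was then 25 in replicate 2 (71.4% of the listed genes) and 24 in replicate 1 (68.6%). The same replacement gave 33.6% of all protein-coding genes in replicate 2 (4691 of 13945) and 32.9% in replicate 1 (4581 of 13945).

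The peaks were compared between replicates by their ranks, since the scale of the signal is not stated. Of the 23 highest summits, 14 (60.9%) lay in a peak that shared at least 50% of both intervals with one of the highest peaks of each replicate, taken to the length of the thresholded list, and the share over all protein-coding genes with a summit was 59.2%. With any overlap, 22 of the 23 counted. By the rank of the overlapping replicate peak with the nearest summit, 20 of the 23 peaks were within that length in both replicates. By the same measure, 17 had ranks within 1.5-fold of each other. Gp93 and Sec23 fell outside by that rank, but another peak within that length overlapped theirs in the same replicate. TRAM had nearly the same rank in both, with a ratio of 1.03. Sec23, Hsc70-3, Sec61beta and Spase22-23 were over 2-fold apart, with ratios of 2.09, 2.27, 2.70 and 3.43. Neither replicate was ahead, as 11 genes ranked better in replicate 1 and 12 in replicate 2.

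**Figure D2:**
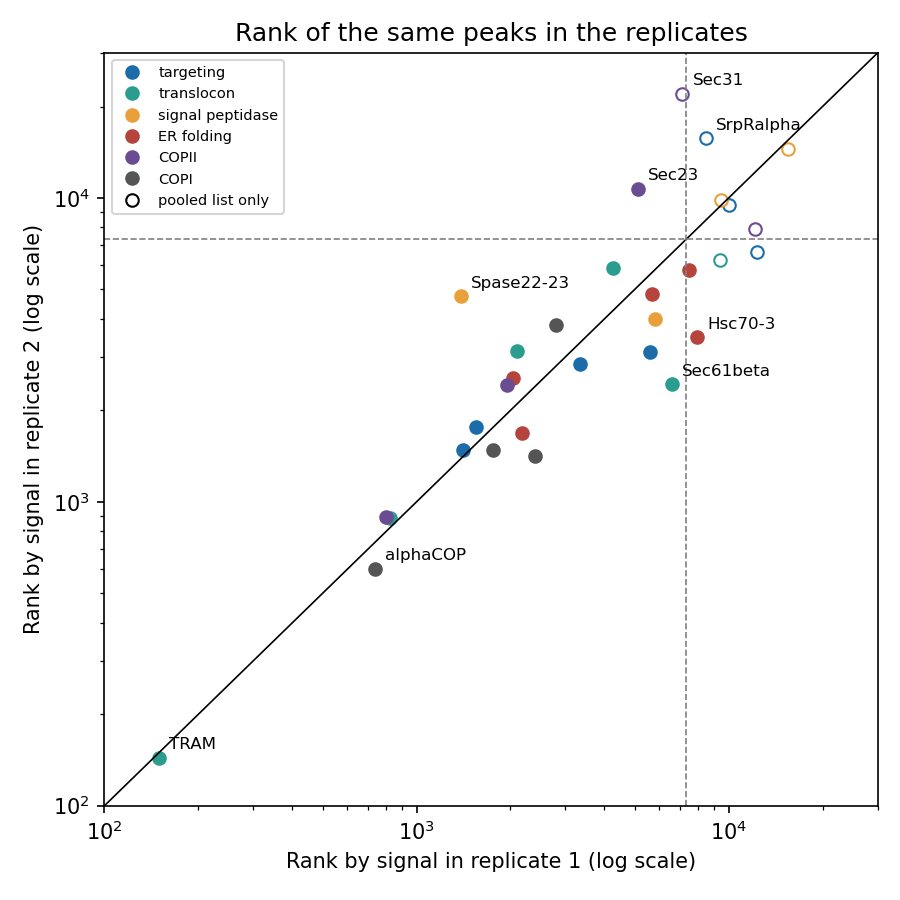
Rank of the peak at each of the 31 genes with any summit, in replicate 1 (horizontal) and replicate 2 (vertical). Filled markers are the 23 genes with a thresholded summit, and open markers are the 8 with only a pooled one. Both axes are logarithmic, with rank 1 the highest, and guide lines mark the length of the thresholded list. TRAM is at ranks 149 and 144, and 20 of the 23 genes lie within the guide lines of both replicates.

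The position of the summits was then compared with that of other genes. The highest summits of the 23 genes lay at a median of 198 bp from the gene's TSS, and those of all protein-coding genes with a summit at 146 bp. In both sets 73.9% lay upstream of the TSS. Within 200 bp of it were 12 of the 23 (52.2%) and 62.8% over all such genes. By annotation, 10 of the 23 summits were intergenic (43.5%, and 45.3% over all such genes) and 8 in a 5′ UTR (34.8%, and 28.8%). A further 3 were in an intron (13.0%, and 21.8%) and 2 in an exon of a non-coding RNA (8.7%, and 1.67%). More than 1 summit was found at 9 of the 23 genes (39.1%), and at 23.6% over all such genes.

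**Figure D3:**
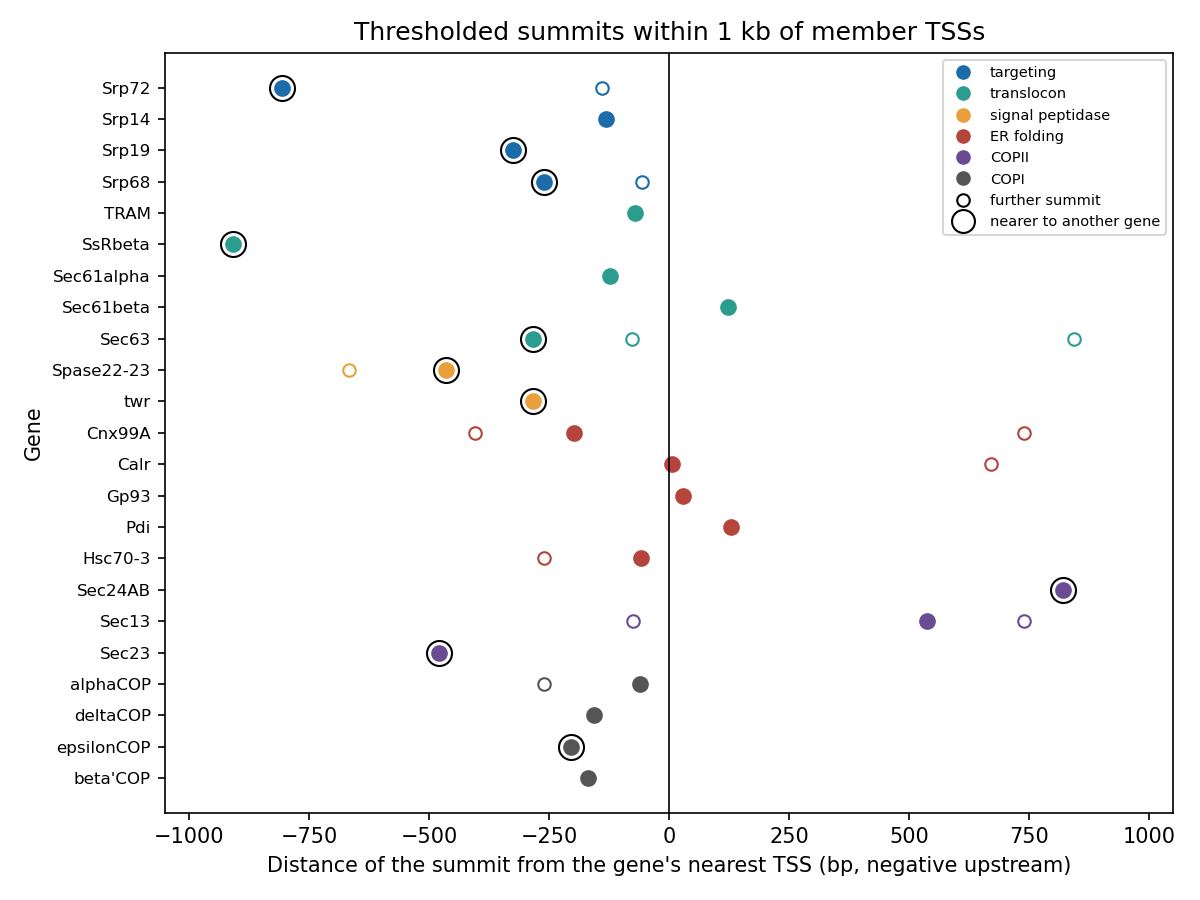
Distance in bp of the highest thresholded summit from the nearest TSS of the gene, negative upstream, for the 23 genes grouped by step; marker style separates summits nearer to another gene's TSS from the rest. The highest summits of the 5 ER folding genes lie within 200 bp of the TSS, and those of the 3 COPII genes lie beyond it. Over all protein-coding genes with a summit, 62.8% lie within 200 bp.

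Shared promoters bear on which gene a peak is counted for. At 10 of the 23 genes (43.5%) the highest summit lay nearer to a TSS of another gene, and over all protein-coding genes with a summit the share was 30.3%. These were Srp19, Srp68, Srp72, SsRbeta, Spase22-23, twr, Sec23, Sec24AB and epsilonCOP, with qm, pix, asRNA:CR46044, Pgm1, mask, CG1307, MTA1-like, asRNA:CR45467 and KFase as the neighbours, and Sec63 with pst. A coding gene on the opposite strand started upstream within 500 bp at 16 of the 35 genes, and 12 of these 16 had a thresholded summit. Of the other 19, 11 had one. Over all protein-coding genes the share with a summit was 54.4% with such a neighbour and 25.1% without. When a summit counted only for the gene with the nearest TSS, 16 of the 35 genes had one, and 24.5% of all protein-coding genes did. The part of neighbouring genes in these peaks was not tested.

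The counts were also set beside the number of start sites and a stricter threshold. Of the 26 genes with 1 TSS, 17 had a thresholded summit, as did 4 of the 7 with 2 to 3 TSSs, and both genes with 4 or more TSSs, TRAM and Hsc70-3, had one. Over all protein-coding genes the share was 25.8% with 1 TSS, 50.5% with 2 to 3 and 74.1% with 4 or more. Among the 3664 highest thresholded peaks, 15 of the 35 genes had a summit, and 19.1% of all protein-coding genes did.

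Within 50 bp of the highest summit, 8 of the 23 genes (34.8%) had an E-box, CANNTG on either strand, and 37.2% of the 3301 distinct summits of all protein-coding genes did. In windows of the same length 400 bp to either side of the members' summits the share was 45.7%, so E-boxes were not more frequent at the summit than beside it. The 8 genes were Sec61beta, twr, Hsc70-3, Gp93, Sec13, Sec23, alphaCOP and beta'COP. beta'COP had 3 different E-boxes and was the 1 gene with CAGCTG, a form that 6.85% of all such summits held. Hsc70-3 alone had CACGTG (1.36% of all such summits). Median GC content was 37.6% both at the members' summits and at all such summits, and 49.0% in the members' flanking windows.

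**Figure D4:**
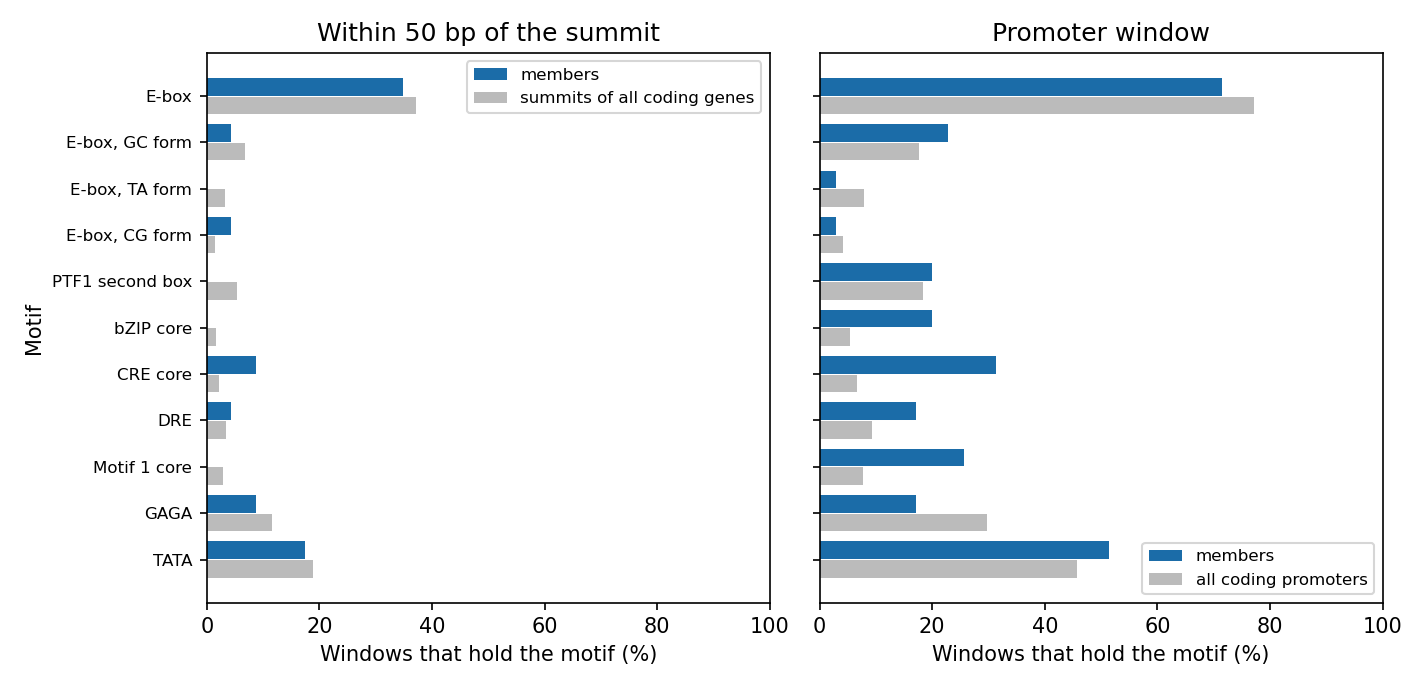
Share in percent of windows that hold each named motif on either strand, for windows of 50 bp to either side of the highest summits of the 23 genes and of all 3301 summits of protein-coding genes, and for the 300 bp promoters of the 35 genes and of all 13945 protein-coding genes. E-boxes were at 34.8% of the 23 summits and 37.2% of all, and the CRE core was in 31.4% of the 35 promoters and 6.65% of all.

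Promoters were searched as well, taken from 250 bp before to 50 bp after the gene's 5′ end on both strands. TGACGT, a core of the cyclic AMP response element that bZIP proteins such as CrebA bind, was in 11 of the 35 (31.4%) and in 6.65% of all 13945 promoters. Of these 11, 6 were among the 23 genes with a thresholded summit and 5 among the 12 without. CCACGT, a core of sites of the mammalian unfolded protein response, was in 7 (20%) and in 5.43%, with 4 of the 7 at genes with a thresholded summit and 3 at genes without. Both overlap in TGACGTGG, which was in 5 promoters (14.3%), those of SrpRalpha, Sec61beta, SsRbeta, Sec24AB and Sec24CD, and in 0.373% of all (52 of 13945). That combination was noticed after the values were seen. At the members' summits TGACGT was in 2 windows (8.7%, Hsc70-3 and Sec24AB), and in 2.21% of all such summits, while TGACGTGG was in 0.

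In all 5 promoters TGACGTGG or its reverse began 2 to 31 bp downstream of the gene's start. Of these, 3 are shown with 10 bases to each side and the motif in capitals, at dm6 chrX:11129055-11129082 (minus strand, SrpRalpha), chr3L:16129612-16129639 (plus, SsRbeta, where the motif is on the opposite strand) and chr2L:2236796-2236823 (minus, Sec24CD).
SrpRalpha: gctaggcaagTGACGTGGaacgtgtggc
SsRbeta: cgaatccattCCACGTCAcgaaccaccg
Sec24CD: attagggaacTGACGTGGaagttcgttt
The Fer1-GFP peaks did not share one position relative to this motif. Its distance to the highest summit was 16 bp at SrpRalpha, a pooled summit, and 117, 801 and 918 bp at Sec61beta, Sec24AB and SsRbeta, and Sec24CD had no summit. Motif 1, searched as GGTCACAC, was in 9 of the 35 promoters (25.7%) and 7.7% of all, and in none of the 23 summit windows. TATCGATA was in 6 (17.1%) and 9.36%, with Srp68 the only gene to have it at its summit. GAGAG was in 6 (17.1%) and in 29.7% of all promoters. CATATG and TTTCCC, the second box of sites bound by mammalian PTF1, were in none of the 23 summit windows, and in 3.24% and 5.39% of all such summits. A match is a run of letters and says nothing of binding.

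Other genes of the secretory pathway, from a list written with earlier results of these data known, gave similar counts. Of the 55 genes matched, 33 (60.0%) had a thresholded summit, beside 33.1% of all protein-coding genes. With the nearest TSS alone, 20 of them kept a summit, beside 24.5% of all protein-coding genes. Of oligosaccharyltransferase, which adds N-glycans, and the SRP receptor's beta subunit, 4 of 5 genes had one, with Dad1 at a signal of 737.3, Stt3B at 289.6 and SrpRbeta at 129.8. Of p24 and other cargo receptors, 6 of 9 had one, with loj at 506.2, ergic53 at 196.3 and p24-1 at 188.6. Dad1 and loj thus had higher signals than most of the 35 genes. Of SNAREs and tethers between ER and Golgi, 7 of 12 had one, led by Ykt6 at 311.9, Syx5 at 272.4 and Syx18 at 225.2. Of GTPases and exit-site genes, 6 of 9 had one, led by garz, an exchange factor for Arf1, at 471.9. Among the genes named in this paragraph, the summits of Stt3B, Syx5, Syx18 and garz lay nearer to a TSS of another gene. Those neighbours were CG11839 (137 bp away), CG5861 (74 bp), atl (43 bp) and CG8841 (17 bp).

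Among further folding and quality-control genes, 6 of 11 had a thresholded summit. Hrd3, a part of the ubiquitin ligase for misfolded ER proteins, had a signal of 1141, close to that of TRAM, and prtp had 446.1 and Edem2 240. The prtp summit lay 443 bp from prtp and 407 bp from a TSS of lncRNA:CR45618. Among regulators of secretion and ER stress, 4 of 9 had one. SREBP, a lipid regulator cleaved in the Golgi, had 562.1, Xbp1, a transcription factor of the unfolded protein response, had 378.1, and Ire1, the sensor that splices its mRNA, had 199.1. CrebA, chosen after its value was seen, had only a pooled summit, of 83.09 (rank 10122).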

How the data were processed

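ChIP-seq peaks were analysed for 2 biological replicates of 1 group. The authors deposited, on dm6, a list of 7329 peaks past their IDR threshold and lists of 30000 peaks for each replicate and for the pooled replicates. Each deposited peak carries a signal value, whose scale is not stated, and a summit offset. Signals were therefore compared within a list only and replicates by rank. A replicate rank is that of the overlapping replicate peak with the nearest summit. The aligner, peak caller and IDR limit were not given in the sources used here. Lists on dm3 and the control library were not used. Depth is unknown, so no interval is given.

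All 7329 thresholded summits are in the pooled list, so pooled peaks are not independent of them. Summits were assigned to every gene with a TSS within 1 kb (Ensembl release 115, on the Release 6 assembly, which is dm6), and a gene's highest summit was used. All 35 symbols matched. Of 59 other pathway genes listed, 55 were matched, 4 of them by a synonym, 3 were not found and 1 was a duplicate. The members and lists were chosen with earlier results of these data known. The rule named all 35 genes, any gene with a TSS nearer to a member's summit, and up to 3 other genes per pathway group by signal. Sequences were read from the RefSeq copy of the genome. Since the signals chose the genes, no test was run. The counting was tested on simulated positions. Alternatives were other windows, a stricter threshold, coding TSSs alone, the nearest TSS alone, other overlaps and each replicate alone. Tables were handled with pandas 2.3.3 and numpy 2.4.6 in Python 3.11.15, and plots drawn with matplotlib 3.10.9.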

Additional observations from a re-analysis of the deposited data

How the results depend on the processing

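Of 87 values under alternatives, 69 moved by at most 1.5-fold (medians by less than the SD between the values from each replicate alone) and 18 by more. With summits counted only within 200 bp, signal peptidase had 0 genes in place of 2 and COPII 1 in place of 3. The nearest TSS alone gave the same 0 and 1, and left 20 of the other pathway genes in place of 33. At either setting 16 of the 35 genes (45.7%) had a summit. Over all protein-coding genes the share was 23.3% within 200 bp and 24.5% with the nearest TSS alone. Among the 3664 highest thresholded peaks, 15 of the 35 genes had a summit in place of 23, with 3 of the translocon, 2 of ER folding and 1 of signal peptidase, and 21 of the other pathway genes and 2662 of all protein-coding genes in place of 4615. A window of 5 kb gave 7548 protein-coding genes (54.1%) and 28 of the 35 genes (80.0%). With 500 bp the members' median rank was 3619 in place of 2103, lower in the list than that of all protein-coding genes with a summit in that window (3210.5), and their median distance 141 bp in place of 198. With each replicate left out in turn, the median rank was 2288 to 2847 and the median distance 159 to 196 bp. Any overlap gave 22 genes shared by both replicates in place of 14, and E-boxes within 25 bp were at 2 summits in place of 8. A wider window or a looser overlap can only raise such counts, and a narrower window or a stricter threshold can only lower them. The cause of the other changes was not tested. No paired analysis was possible because there is 1 group. Having 2 replicates, unknown depth and no use of the control limit these values to peaks as the authors called them.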

Other observations

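Some of the 35 genes are neighbours, and whether their peaks are independent of each other was not tested. Srp14 and Srp72 are 7946 bp apart on 3R, Srp19 and Sec63 12526 bp apart on 3L, and Sec61alpha and epsilonCOP 8514 bp apart on 2L. All 6 of these genes had a thresholded summit. The 23 genes had 35 thresholded summits in all, and no pair of the 35 genes shared a highest summit.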
